A study of Homo sapiens with 2 samples.

Results

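The sirtuins and the FOXO transcription factors were examined in HepG2 cells loaded with free fatty acids (FFA), with or without the retinoid 9-cis-RA. The 10 genes, SIRT1 to SIRT7 together with FOXO1, FOXO3 and FOXO4, were selected by gene symbol and looked up by their Ensembl identifier among 60623 entries. The rule uses gene symbols and no measured value, but it was set with earlier results of these data known. All 10 were among the 20431 genes whose counts summed to at least 10. RNA was sequenced from 2 libraries, 1 per group. HepG2 is an established human hepatocellular carcinoma line, with its genotype labelled as wild type. Both groups, labelled as the same batch, received 1 mM of an oleic and palmitic acid mixture bound to albumin for 24 h. The FFA + 9-cis-RA cells were in addition given 10 μM 9-cis-RA (9-cis-retinoic acid), a ligand of the RXR and RAR nuclear receptors, and the FFA cells were given none. Below, pairs of values are given with the FFA library before the FFA + 9-cis-RA library. A culture without FFA was not analysed here.

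Poly(A) RNA was counted as whole fragments per gene, with 60821539 counts with FFA alone and 57669670 with FFA + 9-cis-RA. With 1 library per group no replicate error can be measured, so no test was run, and differences between cultures and effects of the treatment cannot be told apart. Fold changes are given as log2 of the FFA + 9-cis-RA level over the FFA level, after division of the counts by DESeq2 size factors and addition of a pseudocount of 1. Brackets hold the exact 95% interval, which covers counting error only and compares these libraries rather than the conditions. In bulk RNA, fewer cells of a type and less RNA per cell cannot be told apart. As a label check, all 3 retinoid response genes read were higher with 9-cis-RA. CYP26A1, a retinoic acid hydroxylase, had 4 and 709 counts, RARB had 6 and 46, and DHRS3 had 1126 and 1999. All 11 hepatocyte and hepatoma markers were among the genes compared, 4 higher and 7 lower with 9-cis-RA. Of 13 markers of other liver cell types, 8 could be compared, of which 1 was higher and 7 lower, and PTPRC, LRAT and DCN had no count in either library. Their summed normalized counts were 4197 in the FFA and 2787 in the FFA + 9-cis-RA library, mostly from KRT19, ACTA2 and LYVE1. Both groups were cultures of the HepG2 line, so these counts do not measure other cell types. The part of these markers in the values below was not tested.

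Sirtuins are enzymes that remove acetyl and other acyl groups from proteins and consume NAD+ in each reaction, which ties their activity to the energy state of the cell. SIRT1, SIRT6 and SIRT7 act mainly in the nucleus, SIRT2 mainly in the cytosol, and SIRT3, SIRT4 and SIRT5 in mitochondria. FOXO factors are forkhead transcription factors that insulin signalling, through the kinase AKT, keeps out of the nucleus, and that sirtuins deacetylate. In liver both families are known for their part in gluconeogenesis, fatty acid oxidation and the defence against oxidative stress. SIRT1 is also a textbook target of miR-34a, a microRNA that pairs through its seed with matching bases in messenger RNA. The study cites FOXO3 as a direct target too. Its exploratory protein screen, done without FFA, found less FOXO3 protein when miR-34a was overexpressed.

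The 3 microRNAs of the table used here that share the seed of miR-34a are shown because the sites below are complementary to it. Mature sequences are from RefSeq (GRCh38.p14), written 5′ to 3′, with bases 2 to 8, the seed, in capitals. They lie on the minus strand at chr1:9151735-9151756, chr5:55170586-55170607 and chr5:55170706-55170727.
hsa-miR-34a-5p: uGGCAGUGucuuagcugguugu
hsa-miR-449a: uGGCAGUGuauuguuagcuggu
hsa-miR-449b-5p: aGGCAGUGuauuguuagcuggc

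The 3′ untranslated region (3′ UTR) of each gene's longest coding transcript in GENCODE 29 (GRCh38) was searched on the transcript strand. The motifs were CACTGCC, which pairs with the whole seed, the same followed by A (CACTGCCA), and ACTGCCA. In ACTGCCA, the letters ACTGCC pair with miRNA bases 2 to 7 and are followed by A. The last motif is contained in CACTGCCA and was counted separately only where the full seed match was absent. Matches were found in SIRT1 and SIRT6 and in no other of the 10 genes. That of SIRT1 held ACTGCCA at bases 891 and 1434 of 1797, and that of SIRT6 held CACTGCC at base 423 of 508. The windows are printed on the transcript strand with the match in capitals, at chr10:67917472-67917501 and chr10:67918015-67918044 on the plus strand and at chr19:4174177-4174206 on the minus strand.
SIRT1, base 891: cacaagtattaaACTGCCAaaatgtgaata
SIRT1, base 1434: gctaggaccattACTGCCAgagaaaaaaat
SIRT6, base 423: agtagaggcttgCACTGCCtttggggctgg

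CACTGCC was present in 13.2% of 19555 searched 3′ UTRs, CACTGCCA in 4.38%, and ACTGCCA without the full match in a further 4.63%. Longer 3′ UTRs held the motif more often. Among 1982 regions within 20% of the length of that of SIRT6, 7.92% held CACTGCC, against 31.6% of 978 regions within 20% of the length of that of FOXO3, the longest of the set with 4976 bases and without a match. A match is a description of letters and not a measured site, and the lack of one says only that these letters are not in the searched region. The plot of seed matches shows where they fall.

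**Figure D1:**
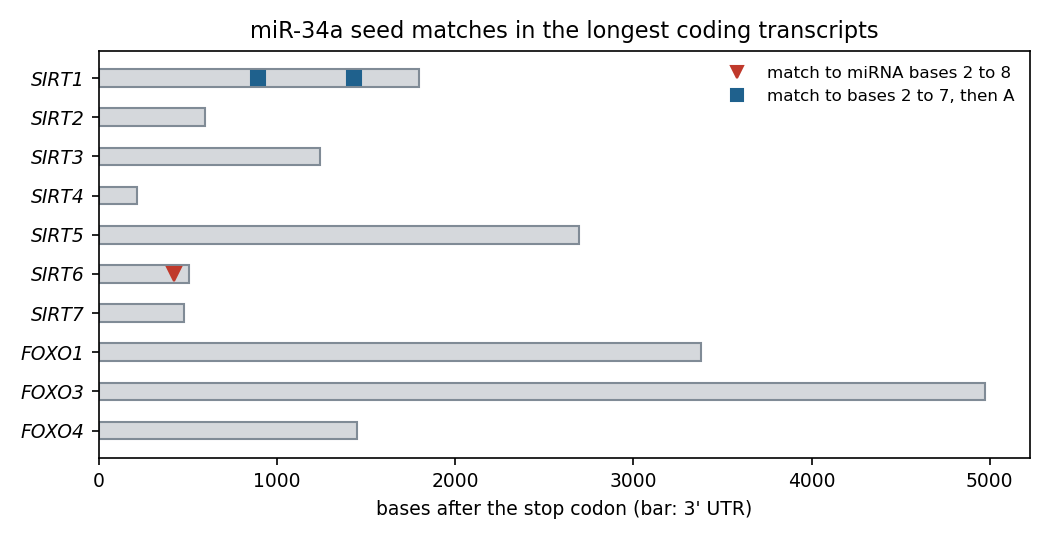
3′ UTR of the longest coding transcript of each gene, drawn to scale in bases after the stop codon. The triangle marks a match to miRNA bases 2 to 8 and squares mark a match to bases 2 to 7 followed by A. Only SIRT1, with 2 squares, and SIRT6, with 1 triangle, carry a match, and the longest bars, those of FOXO3 and FOXO1, carry none.

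The promoter windows, from 250 bases before to 50 after the transcription start in RefSeq (GRCh38.p14), were available for 9 of the 10 genes, without SIRT7. They were searched on both strands for the forkhead motif GTAAACA and for AGGTCA, the core of nuclear receptor elements. AGGTCA was present in 13.9% of 27305 promoter windows and in 0 of the 9. GTAAACA was present in 3.41% of windows and in 1 of the 9, that of FOXO4, which is shown with the motif in capitals and lies 23 bases after the start at chrX:71095864-71095891 on the plus strand.
FOXO4 promoter: ccggcgagtgGTAAACAgagacgtcagg

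Per kilobase of exonic length, the sirtuins were the more abundant family. In the FFA library the order of the levels, in fragments per kilobase scaled to the library total (FPKM), was SIRT2, SIRT6, SIRT1, SIRT7, SIRT3, FOXO3, FOXO1, FOXO4, SIRT5 and SIRT4, from 8.78 down to 0.794. The order was the same in the FFA + 9-cis-RA library, from 9.90 for SIRT2 down to 0.880 for SIRT4. Neighbours whose counting intervals overlapped were SIRT6 and SIRT1, FOXO3 and FOXO1, and FOXO4 and SIRT5 in the FFA library, and SIRT6 and SIRT1 alone in the FFA + 9-cis-RA library. This order depends on the length used. With the length of the longest annotated transcript in place of all exonic bases, levels in the FFA library were 26.4 for SIRT2, 23.2 for SIRT7, 12.5 for SIRT6, 11.9 for SIRT3, 8.02 for SIRT1, 2.98 for FOXO1, 2.84 for FOXO3, 2.51 for SIRT5, 2.11 for FOXO4 and 0.797 for SIRT4. Summed over each family, the sirtuins had 37.97 FPKM in the FFA and 42.7 in the FFA + 9-cis-RA library, and the 3 FOXO factors had 7.23 and 9.58. SIRT2 held the largest share of the sirtuin sum in both libraries, 23.1% and 23.2%, while the share of SIRT5 was 4.44% and 3.22%.

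**Figure D2:**
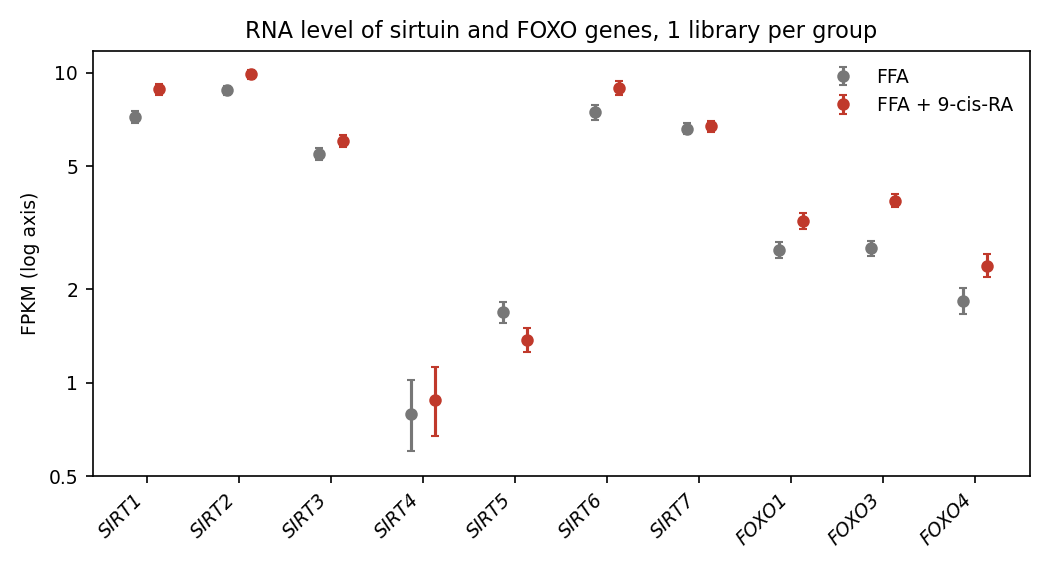
Levels of the 10 genes in FPKM on a log axis, in the FFA library (grey) and the FFA + 9-cis-RA library (red), 1 library each, with exact 95% Poisson intervals of the counts. SIRT2 has the highest level in both libraries and SIRT4 the lowest, and FOXO3 (2.72 and 3.87 FPKM) lies higher and SIRT5 (1.69 and 1.37 FPKM) lower with 9-cis-RA. The intervals of the libraries overlap only for SIRT4 and SIRT7, and of the others all but SIRT5 are higher with 9-cis-RA.

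Of the 10 genes, 8 were higher and 2 lower in the FFA + 9-cis-RA library, with a median log2 fold change of 0.17, where all compared genes had a median of -0.020. Of all 20431 compared genes, 9751 were higher and 10680 lower. FOXO3 and FOXO4 exceeded 0.32, about 25% higher, as did 14.6% of all compared genes, and SIRT5 lay below -0.32, as did 21.8%. Of the 7 sirtuins 5 were higher, or 6 with total-count scaling, and their median was 0.098. None of the 10 passed 1 in either direction, the fold the study used as its threshold, against 3.37% of all compared genes above 1 and 4.90% below -1. The interval lay above 0 for 7 of the 10 genes and for 22.5% of all compared genes, and below 0 for 1 of the 10 and for 25.7%. Because intervals narrow with depth, the same shares were taken over the 11537 genes with at least 500 counts, which include all of the 10 but SIRT4. In that set 33.2% of genes had an interval above 0 and 34.0% below, 6.96% exceeded 0.32 and 10.8% lay below -0.32.

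SIRT1 deacetylates histones, PGC-1α and FOXO factors. It lies on chromosome 10 from 67884656 to 67918390 (GRCh38, plus strand) and had 1996 counts with FFA alone and 2327 with FFA + 9-cis-RA. Its level was higher with 9-cis-RA, 8.84 against 7.19 FPKM. The log2 fold change was 0.30 with total-count scaling, which FPKM uses, and 0.25 [0.16, 0.34] with size factors. A fold change at least as high was found for 19.1% of all compared genes and for 12.2% of those with at least 500 counts.

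SIRT6, a chromatin deacetylase that acts on histone H3 and restrains glycolytic and lipid synthesis genes, lies on chromosome 19 from 4174109 to 4182566 (minus strand). It had 1247 counts with FFA alone and 1416 with FFA + 9-cis-RA. Its log2 fold change of 0.21 [0.10, 0.32] was close to that of SIRT1, and the ratio of SIRT1 to SIRT6 per length, 0.964 and 0.990, differed between the libraries by a factor of 1.03 [0.931, 1.13].

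SIRT7, which is concentrated in the nucleolus and acts on ribosomal RNA transcription, lies on chromosome 17 from 81911939 to 81921323 (minus strand). It had 2464 counts with FFA alone and 2377 with FFA + 9-cis-RA. These give a log2 fold change of -0.024 [-0.11, 0.058], an interval that holds 0, and scaling by total counts turned the sign to 0.025. Of its exonic bases, 1.71% overlap MAFG on the same strand. Relative to SIRT7, a ratio that no scaling between libraries can alter, SIRT1 was higher in the FFA + 9-cis-RA library by a factor of 1.21 [1.11, 1.31] and SIRT6 by 1.18 [1.07, 1.30]. SIRT7 thus differed in fold change from SIRT1 and from SIRT6 beyond counting error.

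SIRT2, the mainly cytosolic sirtuin that deacetylates tubulin and gluconeogenic enzymes, lies on chromosome 19 from 38878555 to 38899862 (minus strand). It had the most counts of the set, 3322 with FFA alone and 3553 with FFA + 9-cis-RA. Its log2 fold change was 0.12 [0.056, 0.19], a small difference in the direction of SIRT1, and 30.6% of all compared genes had a fold change at least as high.

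The mitochondrial sirtuins differed among themselves. SIRT3, the main mitochondrial deacetylase, lies on chromosome 11 from 215030 to 236931 (minus strand) and had 1846 counts with FFA alone and 1934 with FFA + 9-cis-RA. Its log2 fold change was 0.095 [0.0021, 0.19], with a lower bound next to 0, and the interval held 0 once the trend on mean expression or on gene length was removed. SIRT4, which acts on glutamate dehydrogenase and branched-chain amino acid breakdown, lies on chromosome 12 from 120302316 to 120313249 (plus strand) and had 59 and 62 counts. At that depth its log2 fold change of 0.098 [-0.44, 0.64] shows no detectable difference and would not resolve one of the size seen for the other genes.

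SIRT5, which removes succinyl, malonyl and glutaryl groups from enzymes of the urea cycle and fatty acid oxidation, lies on chromosome 6 from 13574529 to 13615158 (plus strand). It had 669 counts with FFA alone and 517 with FFA + 9-cis-RA. SIRT5 was the only one of the 10 genes whose interval lay below 0, with a log2 fold change of -0.34 [-0.51, -0.18]. A fold change at least as low was found for 20.5% of all compared genes and for 9.86% of those with at least 500 counts. With total-count scaling its value was -0.29, short of -0.32. The ratio of SIRT3 to SIRT5 per length was 3.24 with FFA alone and 4.40 with FFA + 9-cis-RA, a change by a factor of 1.36 [1.19, 1.55], while that of SIRT3 to SIRT4 changed by 0.997 [0.682, 1.46].

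All 3 FOXO factors had more counts with 9-cis-RA, with a median log2 fold change of 0.33. FOXO1, the main insulin-regulated activator of gluconeogenic genes in hepatocytes, lies on chromosome 13 from 40469953 to 40666641 (minus strand) and had 1039 counts with FFA alone and 1224 with FFA + 9-cis-RA. Its log2 fold change was 0.26 [0.14, 0.38], and 4.22% of its exonic bases overlap the noncoding gene LINC00598 on the same strand.

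FOXO3, an activator of antioxidant, autophagy and cell cycle arrest genes, lies on chromosome 6 from 108559835 to 108684774 (plus strand). It had 1269 counts with FFA alone and 1710 with FFA + 9-cis-RA. FOXO3 had the highest fold change of the 10 genes, 0.46 on the log2 scale [0.35, 0.56] or 1.37-fold, and its interval was the only one to lie wholly above 0.32. A fold change at least as high was found for 9.97% of all compared genes and for 2.85% of those with at least 500 counts. Of the stretches of 100 bases in its longest transcript, 18.4% also occur in transcripts of FOXO3B, AC026271.3 or ZNF286B, and reads that map to several places were not counted.

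FOXO4, a FOXO factor of lower abundance in these cells, lies on chromosome X from 71095851 to 71103532 (plus strand). It had 423 counts with FFA alone and 522 with FFA + 9-cis-RA. Its log2 fold change of 0.33 [0.14, 0.52] was just above 0.32, with an interval that reached to both sides of it. The ratio of FOXO1 to FOXO3 per length was 0.985 with FFA alone and 0.861 with FFA + 9-cis-RA, a change by a factor of 0.874 [0.782, 0.977], so the fold changes were unequal within the family. The ratio of FOXO3 to FOXO4 changed by 1.09 [0.940, 1.27].

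**Figure D3:**
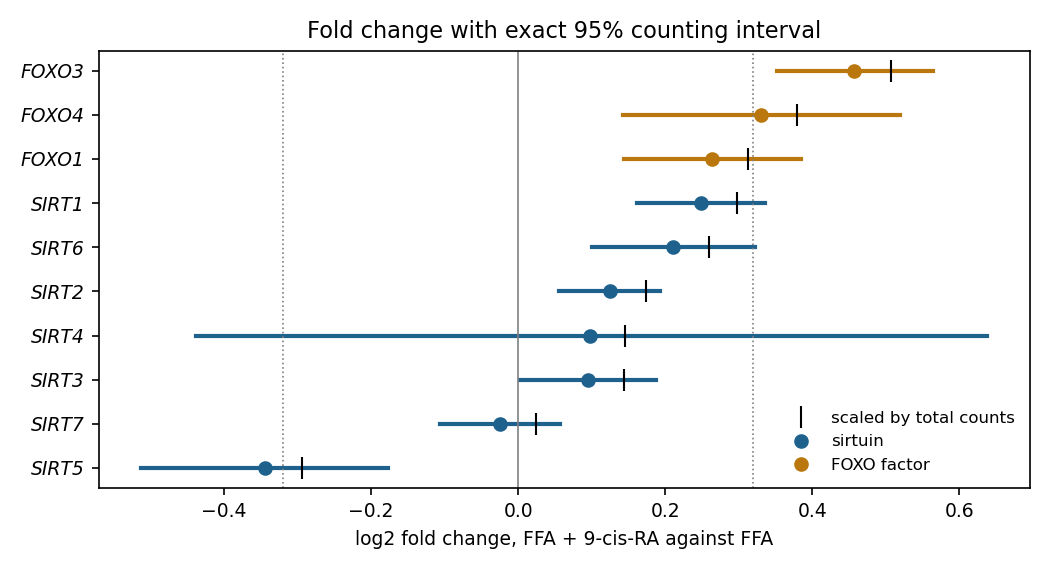
Log2 fold change of each gene, FFA + 9-cis-RA against FFA, with exact 95% counting intervals. Dots are values with DESeq2 size factors (orange for FOXO factors, blue for sirtuins), black ticks are values scaled by total counts, and dotted lines mark -0.32 and 0.32. FOXO3 stands highest at 0.46 and SIRT5 lowest at -0.34, and total-count scaling moves SIRT7 from -0.024 to 0.025.

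Relatives outside the set were read beside it. FOXO6 had 36 counts with FFA alone and 47 with FFA + 9-cis-RA, with a log2 fold change of 0.40 [-0.24, 1.08]. FOXO3B, a near copy of part of FOXO3, had 484 and 499 counts, with a log2 fold change of 0.072 [-0.11, 0.26], and 5.59% of its exonic bases overlap another gene on the same strand. The ratio of FOXO3 to FOXO3B per length was 2.12 with FFA alone and 2.76 with FFA + 9-cis-RA, a change by a factor of 1.31 [1.13, 1.51], so the 2 genes differed in fold change beyond counting error. FOXO1B had 0 counts in both, which allows up to 3 counts, or 0.0493 and 0.0520 CPM (counts scaled to the library total). The zinc-dependent deacetylases, a separate enzyme family that uses no NAD+, had 2 of 10 compared members higher and 8 lower, with a median of -0.17. Over all compared genes 9751 were higher and 10680 lower. HDAC6, the tubulin deacetylase, had 5283 and 4115 counts, with a log2 fold change of -0.33 [-0.39, -0.27], the only one of them past 0.32 in size. Among all genes with at least 500 counts, 6.96% exceeded 0.32 and 10.8% lay below -0.32.

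The genes that make the sirtuins' cosubstrate NAD+ were mostly lower in the FFA + 9-cis-RA library. Of 13 compared genes of NAD+ synthesis and transport, 3 were higher and 10 lower, with a median of -0.15. Over all genes with at least 500 counts, which include these 13, 5856 were higher and 5681 lower. NAMPT, the rate-limiting enzyme of NAD+ salvage from nicotinamide, had 5818 counts with FFA alone and 5129 with FFA + 9-cis-RA (log2 fold change, -0.15 [-0.21, -0.10]). KYNU, the kynureninase of the route from tryptophan, had 2054 and 686 counts. It was the only one of the 13 past 0.32 in size, at -1.55 [-1.68, -1.43]. Of all genes with at least 500 counts, 6.96% exceeded 0.32 and 10.8% lay below -0.32. The other NAD+ consumers and nicotinamide-clearing enzymes had 5 of 10 higher and 5 lower, with a median of 0.040. With a minimum of 50 counts, 3 were higher and 5 lower, with a median of -0.12. TNKS2, a tankyrase that modifies proteins with ADP-ribose, had 2811 and 3488 counts, with a log2 fold change of 0.34 [0.27, 0.41].

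Regulators of SIRT1 showed no common direction, with 11 of 16 higher, 5 lower and a median of 0.028. CCAR2, which binds SIRT1 and inhibits it, had 10767 counts with FFA alone and 11482 with FFA + 9-cis-RA (log2 fold change, 0.12 [0.082, 0.16]). The ratio of SIRT1 to CCAR2 changed by a factor of 1.09 [1.02, 1.17]. RPS19BP1, known as an activator of SIRT1, had 4786 and 4750 counts, with a log2 fold change of 0.017 [-0.041, 0.075]. Among the kinases that phosphorylate SIRT1, MAPK8 (JNK1) had 1640 and 2204 counts (log2 fold change, 0.45 [0.36, 0.55]), and DYRK3 had 686 and 847 counts (log2 fold change, 0.33 [0.18, 0.48]). HIC1, a transcriptional repressor of SIRT1, had 133 and 72 counts, with a log2 fold change of -0.85 [-1.29, -0.43].

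MIR34AHG, the host transcript of miR-34a, had 1556 counts with FFA alone and 1111 with FFA + 9-cis-RA. It was lower in the latter, with a log2 fold change of -0.46 [-0.57, -0.35]. SIRT1 (0.25) and SIRT6 (0.21), which hold the printed seed matches, were higher. Of the genes without a match, FOXO3 (0.46), FOXO4 (0.33), FOXO1 (0.26), SIRT2 and SIRT3 were also higher, and SIRT5 was lower. The intervals of SIRT4 and SIRT7, also without a match, held 0. Poly(A) libraries do not measure the mature microRNA, and the relation of these values was not tested. The 24 compared miR-34a targets other than the 10 genes had 10 members higher and 14 lower, with a median of -0.077. NOTCH2 (2104 and 2758 counts, 0.42 [0.34, 0.50]), CCNE2 (755 and 961, 0.38 [0.24, 0.52]) and NOTCH1 (540 and 680, 0.36 [0.20, 0.53]) were higher by more than 0.32. JAG1, a Notch ligand, had 15181 and 10720 counts, with a log2 fold change of -0.47 [-0.51, -0.44], and the receptor kinase MET had 8454 and 6023 counts and -0.46 [-0.51, -0.41]. RXRA, a receptor for 9-cis-RA, had 8291 and 5978 counts, with a log2 fold change of -0.44 [-0.49, -0.40]. PPARA, the receptor that controls fatty acid oxidation genes, had 2403 and 2613 counts, with a log2 fold change of 0.15 [0.068, 0.23]. Over the 13653 compared genes with a searched 3′ UTR, the median log2 fold change was 0.020 for 1975 genes with CACTGCC and -0.0031 for 11678 genes without it. The median 3′ UTR lengths of these groups were 2096 and 749 bases, and the part of length in the difference was not tested.

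Among the nuclear and cytosolic proteins that sirtuins deacetylate, 14 of 22 genes were higher and 8 lower, with a median of 0.045. PCK1, the gluconeogenic phosphoenolpyruvate carboxykinase, had 40 counts with FFA alone and 138 with FFA + 9-cis-RA (log2 fold change, 1.79 [1.30, 2.36]). The acetyltransferase KAT2B had 211 and 292 counts (log2 fold change, 0.49 [0.24, 0.76]), and the DNA helicase WRN had 1236 and 1534 (log2 fold change, 0.34 [0.23, 0.45]). Lower in the FFA + 9-cis-RA library were NR1H4, the bile acid receptor FXR, with 2305 and 1260 counts and a log2 fold change of -0.84 [-0.94, -0.74], and PPARG, with 1019 and 712 counts and -0.49 [-0.63, -0.35]. PPARGC1A, the coactivator PGC-1α, had 852 and 700 counts, with a log2 fold change of -0.26 [-0.40, -0.11].

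Of 22 compared substrates of the mitochondrial sirtuins and their close relatives, 5 were higher and 17 lower, with a median of -0.14. Of these 22 genes, 0 lay above 0.32 and 6 below -0.32, where 14.6% and 21.8% of all compared genes did so. Of the 21 with at least 500 counts, 0 lay above 0.32 and 5 (23.8%) below -0.32. At that depth 6.96% and 10.8% of all genes did so. Scaling by total counts made the split of the 22 genes 9 higher and 13 lower. OTC, the urea cycle enzyme ornithine transcarbamylase, had 436 counts with FFA alone and 132 with FFA + 9-cis-RA (log2 fold change, -1.69 [-1.99, -1.41]). HMGCS1, a cytosolic enzyme of cholesterol synthesis, had 17513 and 8804 counts (log2 fold change, -0.96 [-1.0, -0.93]). SOD2, the mitochondrial superoxide dismutase that SIRT3 deacetylates and FOXO3 activates, had 9094 and 9710 counts, with a log2 fold change of 0.12 [0.081, 0.16].

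The list of kinases and phosphatases that control FOXO location also holds upstream insulin signalling genes. Of its 24 compared genes 12 were higher and 12 lower, with a median of -0.0029. With total-count scaling 15 were higher and 9 lower, with a median of 0.046. AKT1, which phosphorylates FOXO factors in response to insulin, had 12886 counts with FFA alone and 12481 with FFA + 9-cis-RA (log2 fold change, -0.018 [-0.054, 0.017]). AKT2, the AKT isoform prominent in liver, had 6438 and 5741 counts, with a log2 fold change of -0.14 [-0.19, -0.090]. Upstream of AKT, the adaptor IRS1 had 5418 and 3954 counts, with a log2 fold change of -0.43 [-0.49, -0.37], and IRS2 was listed at 0 in both libraries. SGK1, another kinase that phosphorylates FOXO3, had 955 and 629 counts (log2 fold change, -0.57 [-0.72, -0.43]), and PHLPP2, a phosphatase that inactivates AKT, had 1506 and 2040 (log2 fold change, 0.47 [0.37, 0.56]).

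Of 19 proteins that bind FOXO factors or modify them with ubiquitin, methyl or acetyl groups, 10 had a higher and 9 a lower level, with a median of 0.031. CREBBP, an acetyltransferase that acts on FOXO factors as KAT2B does, had 3934 counts with FFA alone and 4954 with FFA + 9-cis-RA (log2 fold change, 0.36 [0.30, 0.42]). CTNNB1, which encodes the FOXO coactivator β-catenin, had 26336 and 20024 counts, with a log2 fold change of -0.37 [-0.39, -0.34].

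Known target genes of FOXO factors did not share the direction of the factors. Of 51 targets in 3 lists, 45 could be compared, with 22 higher and 23 lower in the FFA + 9-cis-RA library and a median log2 fold change of -0.0041. Of the 40 targets with at least 500 counts, 8 exceeded 0.32 and 6 lay below -0.32, which are 20% and 15%, where 6.96% and 10.8% of all genes at that depth did so. Members lay on both sides in each list.

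In the stress defence and autophagy list, 9 of 17 genes were higher and 8 lower, with a median of 0.12. SESN3, a sestrin that restrains mTORC1, had 137 counts with FFA alone and 298 with FFA + 9-cis-RA (log2 fold change, 1.14 [0.85, 1.45]). The autophagosome protein MAP1LC3B had 6692 and 9842 counts (log2 fold change, 0.58 [0.54, 0.63]), and ULK1, the kinase that starts autophagy, had 1617 and 2343 (log2 fold change, 0.56 [0.47, 0.65]). SELENOP, the selenium carrier secreted by hepatocytes, had 28343 and 13261 counts, with a log2 fold change of -1.07 [-1.10, -1.04].

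In the cell cycle and apoptosis list, 6 of 15 genes were higher and 9 lower, with a median of -0.099. PINK1, a kinase that marks damaged mitochondria, had 1630 counts with FFA alone and 2634 with FFA + 9-cis-RA (log2 fold change, 0.72 [0.63, 0.81]). The antiproliferative gene BTG1 had 1072 and 1484 counts (log2 fold change, 0.50 [0.38, 0.61]), and 10.5% of its exonic bases overlap another gene on the same strand. BCL6, a repressor, had 2851 and 1714 counts, with a log2 fold change of -0.71 [-0.79, -0.62]. The death ligand TNFSF10 (TRAIL) had 395 and 244 counts (log2 fold change, -0.67 [-0.90, -0.43]), and MXI1, a MYC antagonist, had 1028 and 694 (log2 fold change, -0.54 [-0.68, -0.40]). CDKN1A, which encodes the cell cycle inhibitor p21, had 11314 and 9954 counts, with a log2 fold change of -0.16 [-0.20, -0.12].

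In the liver metabolism list, 7 of 13 genes were higher and 6 lower, with a median of 0.13. PCK1 was the highest of the list, at the value given above. ANGPTL8, a secreted regulator of lipoprotein lipase, had 10177 counts with FFA alone and 16706 with FFA + 9-cis-RA (log2 fold change, 0.74 [0.71, 0.78]). PNPLA2, the triglyceride lipase ATGL, had 3411 and 5478 counts (log2 fold change, 0.71 [0.65, 0.77]). Lower with 9-cis-RA were MTTP, which loads lipid onto nascent lipoproteins, with 2568 and 1472 counts (log2 fold change, -0.77 [-0.87, -0.68]), and APOC3, an apolipoprotein that slows triglyceride clearance, with 3085 and 2197 (log2 fold change, -0.46 [-0.54, -0.38]). G6PC1, the glucose-6-phosphatase that releases glucose from liver, had 7 and 4 counts, too few to give a direction, with an interval from -3.00 to 1.2. PCK1 and PNPLA2 thus stood on the side of the FOXO factors, and MTTP and APOC3, also known FOXO1 targets, on the opposite side.

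**Figure D4:**
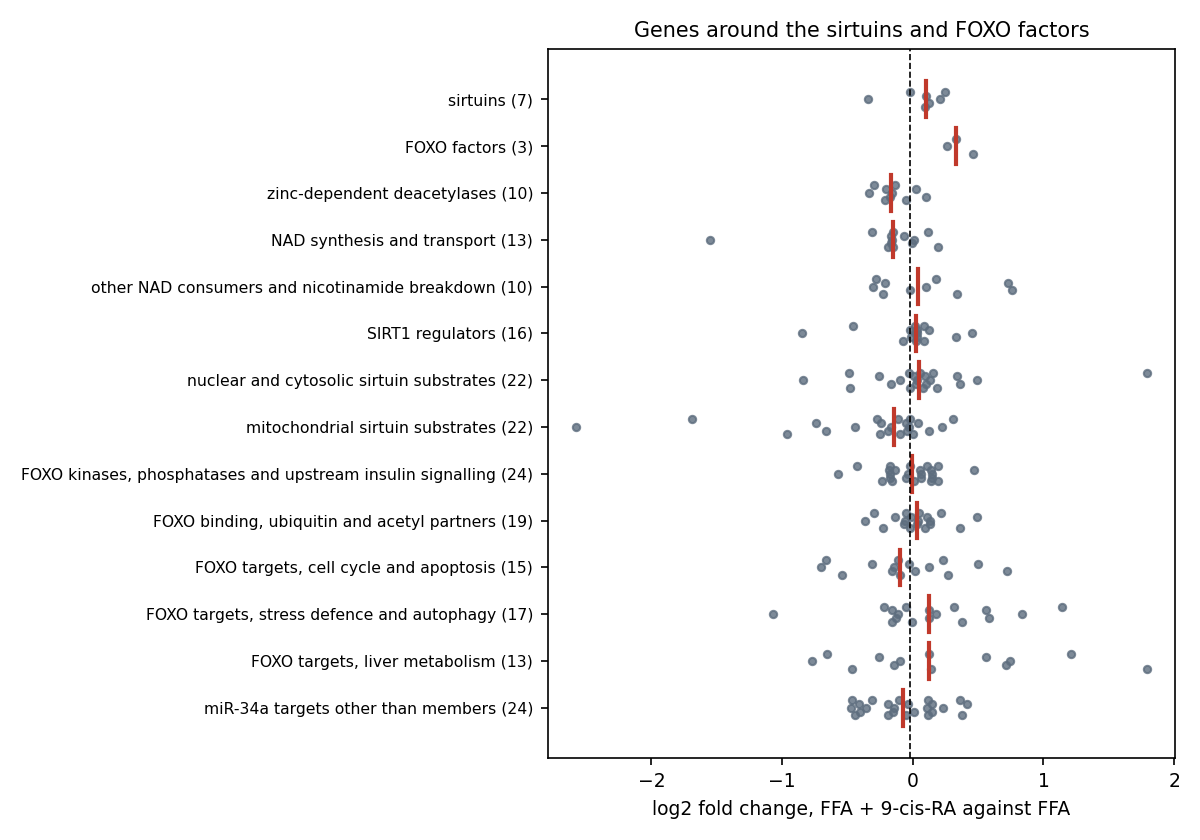
Log2 fold change, FFA + 9-cis-RA against FFA, of every compared gene (grey dots) in each list, with the number compared in brackets. Red bars are list medians and the dashed line is the median of all 20431 compared genes, -0.020. The 3 FOXO factors lie to the right of the line with a median of 0.33, while each list of FOXO targets spreads to both sides.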

How the data were processed

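Poly(A) RNA of HepG2 cells was sequenced in 2 libraries, 1 per group. Unnormalized counts per gene were deposited, which per the file headers came from featureCounts 2.0.1 with strand setting 2 (reverse) and both mates required to map. Multi-mapping reads and reads shared by overlapping genes were left out, so genes with near copies are counted too low. The build was GRCh38 according to the submitters' processing notes. The aligner and annotation release are not given in the sources used here. The deposited tables also list the exonic length of each gene.

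Of 60623 entries, 60295 matched the gene name table and 58516 matched GENCODE 29. After removal of repeated symbols, 41097 had a symbol. Size factors were computed with DESeq2 1.42.0 and TMM factors with edgeR 4.0.16 in R 4.3.3. Fold changes and 95% Clopper-Pearson and Poisson intervals were computed in Python 3.11.15 (numpy 2.4.6 and pandas 2.3.3) with scipy 1.17.1. Loess trends with a span of 0.3 came from statsmodels 0.14.6 and plots from matplotlib 3.10.9. The study names DESeq2 with adjusted p-values, but with 1 library per group no dispersion can be estimated, so no p-value, SD or set test is given. A gene was compared when its summed count reached 10. Counts of 0 carry a floor of 3 counts. The intervals and floors cover counting error only. The steps were tested on simulated data.

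From each list, up to 3 genes higher and 3 lower were named, among those whose normalized count reached 100 and whose log2 fold change was past 0.32 in size, ranked by the interval bound nearest to 0. Genes central to the pathways were named whatever their value. Of the genes this rule names, 2 are not reported here. IRS2 and the overlap partners of the members were named outside this rule, after their values were seen. The members and lists were chosen with earlier results of these data known. Alternatives were TMM and total-count scaling, total counts without mitochondrial genes, pseudocounts of 0.1 and 5, minimums of 1 and 50 counts, the removal of trends on mean expression, gene length and GC content, and the longest transcript as length. Protein sequences were not analysed here.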

Additional observations from a re-analysis of the deposited data

How the results depend on the processing

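Across the scaling, pseudocount and trend alternatives, the fold changes of all 10 genes stayed within their counting intervals. FOXO3 ranged from 0.40 to 0.51 on the log2 scale, SIRT1 from 0.20 to 0.30 and SIRT5 from -0.40 to -0.29. SIRT7 ranged from -0.073 to 0.025 and had a sign that depended on the setting. The number of the 10 genes below -0.32 was 0 with total counts and 0 with total counts without mitochondrial genes, since SIRT5 then lay short of the limit. The number above 0.32 was 1 with the trend on mean expression removed, when FOXO4 stood at 0.32, just under the limit. The number with an interval above 0 was 6, without SIRT3, once the trend on mean expression or on gene length was removed, and 7 otherwise. Over all genes, 689 lay above 1 and 1002 below -1. These were 341 and 594 with a pseudocount of 5, 3771 and 2493 without a filter on low counts, and 153 and 361 with at least 50 counts. Beyond 0.32, 2992 genes were higher and 4450 lower, against 6846 and 8555 without the filter and 1618 and 2616 with at least 50 counts. Of 160 list medians 10 left the range between the medians of the genes' lower and upper interval bounds, and that of the FOXO targets of liver metabolism was 0.012 without the filter. Removal of the GC trend was chosen after the data were seen. No paired analysis was possible because each group has 1 library, and for the same reason no library could be left out.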
